A study of Mus musculus with 37 samples.

Results

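Kupffer cell and macrophage markers were followed in the livers of mice given HFPO-DA, a fluorinated ether acid used to make fluoropolymers. The members were the 10 genes Clec4f, Adgre1, Marco, Cd68, Vsig4, Timd4, Cd5l, Lyz2, Csf1r and Cd163, and every probe that carries their symbol was taken. These were 12 of the 30146 probes in the table, or 10 of its 21450 gene symbols. Cd68 and Csf1r have 2 probes each and the other 8 genes have 1. All 12 probes passed the filter on low counts, which kept 18570 probes of 13004 genes.

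Kupffer cells are the macrophages that live in the liver sinusoids, where they take up particles, bacteria, dying cells and old red cells from the blood. They depend on signals through the CSF1 receptor, and in the mouse they are recognised by the lectin Clec4f, the lipid-binding scavenger protein Cd5l, the complement receptor Vsig4 and the phosphatidylserine receptor Timd4. Monocytes that enter an injured liver share Adgre1, Cd68, Lyz2 and Csf1r with them, while they carry little of the resident markers until they have matured.

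Livers came from 37 wild-type CD1 (Crl:CD1(ICR)) mice of the parental generation in a study of reproduction and development, dosed by gavage with deionized water (0 mg/kg, the controls) or with HFPO-DA at a low (0.1 mg/kg), middle (0.5 mg/kg) or high dose (5 mg/kg). The males had 84 to 85 daily doses, over 70 days before mating and a 14-day mating period, and the females had 53 to 65, from 14 days before mating to lactation day 20 or 21. The high-dose males and the females at the middle and high dose were 4 mice each, and the other 5 groups held 5. RNA was measured in formalin-fixed, paraffin-embedded sections by TempO-Seq, in which pairs of short probes are ligated on their target RNA and counted by sequencing. Each library was 1 mouse, so the replicates were animals. Sex went together with the age given in the study (the females were older), with the number of doses and with lactation. These cannot be told apart here.

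The libraries of males held 2101495 to 10548222 counts and those of females 7952605 to 13878254. Values below are CPM, that is counts relative to the scaled size of the library, or counts as deposited. A probe's efficiency is its own, so levels were not compared between genes. Alb, a hepatocyte marker, had 4300 to 15728 CPM in the 37 livers, and all 7 hepatocyte markers with a probe were counted in every liver. In bulk liver, fewer cells of a type and less RNA per cell cannot be told apart.

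Of the members, 9 lie at the following places in the mouse genome, given as build GRCm38 in the GENCODE vM21 annotation, and all are protein-coding. Clec4f lies on chromosome 6 from 83644542 to 83656187 and Cd163 on the same chromosome from 124304656 to 124330527. Cd5l lies on chromosome 3 from 87357881 to 87371073 and Marco on chromosome 1 from 120474538 to 120505024. Timd4 spans 46810800 to 46844332 and Cd68 spans 69664213 to 69666153, both on chromosome 11. Adgre1 lies on chromosome 17 from 57358691 to 57483527 and Lyz2 on chromosome 10 from 117277331 to 117282321. Vsig4 lies on the X chromosome from 96247203 to 96293438. Where in its gene each probe binds was not analysed here.

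The sequences upstream of 4 members are shown because these genes varied together between male mice: Clec4f with Cd5l, and Timd4 and Cd163 each with Adgre1. They are the reference sequence (RefSeq windows of build GRCm38.p6, present for 8 of the 10 members), written 5′ to 3′ on the strand of the gene and ending before the gene's start in both annotations. Capitals mark GAGGAA, a core bound by ETS factors such as PU.1, and TGCTGA, a core bound by some bZIP factors, on either strand (TTCCTC and TCAGCA are their reverse complements).
Clec4f, minus strand, chr6:83656188-83656366: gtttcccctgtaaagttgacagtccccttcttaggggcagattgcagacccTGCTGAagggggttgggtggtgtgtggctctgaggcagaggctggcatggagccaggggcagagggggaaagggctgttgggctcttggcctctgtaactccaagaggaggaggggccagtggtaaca
Cd5l, plus strand, chr3:87357631-87357880: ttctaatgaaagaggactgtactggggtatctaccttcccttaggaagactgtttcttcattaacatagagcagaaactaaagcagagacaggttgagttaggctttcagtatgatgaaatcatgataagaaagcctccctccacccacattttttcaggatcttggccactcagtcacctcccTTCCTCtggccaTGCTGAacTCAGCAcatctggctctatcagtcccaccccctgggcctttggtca
Timd4, plus strand, chr11:46810549-46810798: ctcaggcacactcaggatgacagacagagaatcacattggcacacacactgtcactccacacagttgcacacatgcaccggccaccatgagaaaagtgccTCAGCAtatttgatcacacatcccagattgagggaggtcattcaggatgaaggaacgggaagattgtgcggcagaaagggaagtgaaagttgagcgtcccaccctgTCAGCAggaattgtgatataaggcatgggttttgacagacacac
Cd163, plus strand, chr6:124304401-124304650: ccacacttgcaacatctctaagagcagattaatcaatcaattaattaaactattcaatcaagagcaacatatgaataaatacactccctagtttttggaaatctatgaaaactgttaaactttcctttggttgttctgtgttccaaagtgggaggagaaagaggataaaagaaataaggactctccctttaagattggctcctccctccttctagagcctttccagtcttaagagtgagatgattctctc

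TGCTGA was found 1 time in the Clec4f sequence, 2 times in that of Cd5l and 2 times in that of Timd4, and GAGGAA 1 time, in that of Cd5l. The Cd163 sequence held neither. Of 32851 promoter windows of 250 upstream bases, 16.1% held TGCTGA and 23.3% held GAGGAA on either strand. The Clec4f stretch is shorter, at 179 bases. The matches are letters in these windows and say nothing of which factor was bound.

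No member changed past an adjusted p of 0.10 in any comparison with the control mice of the same sex. In male mice 0 of 12 probes were called at the low, middle and high dose, where the test called 0%, 0.625% and 12.7% of all probes tested. In female mice 0 of 12 were called at the same doses, against 0%, 0.113% and 4.52% of all probes. The comparison of male with female control mice called none of the 12 (2.6% of all probes). The sex-by-dose interaction at the 3 doses also called none, against 0%, 0.0108% and 0.63% of all probes. At an unadjusted p under 0.05 edgeR counted 1 of the 12 probes at 5 mg/kg in males and 0 in the other 9 comparisons, and so did DESeq2, which called 0 members too. The probes were not the same: it was the second Csf1r probe in edgeR and Lyz2 in DESeq2, which gave no adjusted p to some members in 3 comparisons.

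Of the 4 well-counted members, Lyz2, the lysozyme of myeloid cells, had the largest difference at the highest dose in both sexes, and it was within the spread between mice. Male controls had 10.2, 28.8, 13.5, 12.3 and 3.55 CPM, and male mice at 5 mg/kg had 26.2, 9.48, 39.3 and 46.5. Of the treated males, 2 lay above every control and the groups overlapped. The log2 fold change was 1.1 (SE 0.59, adjusted p = 0.237), with a 95% interval from -0.05 to 2.34. Female controls had 15.6, 17.1, 12.8, 9.43 and 21.3 CPM, and female mice at 5 mg/kg had 18.8, 37.4, 29.6 and 10.5. Again 2 of the 4 treated females lay above every control, and the log2 fold change was 0.66 (SE 0.58, adjusted p = 0.877). At 0.5 mg/kg the means were 10.7 ± 7.90 CPM in male mice (SD, n = 5) and 9.64 ± 4.50 in female mice (SD, n = 4), the lowest means of Lyz2 in each sex. Lyz2 has a near copy, Lyz1, next to it on chromosome 10 (117287797 to 117292868). Of the 1267 windows of 50 bases in the longest Lyz2 transcript, 195 occur unchanged in Lyz1, so reads of the copy could add to Lyz2 if the probe lies there. The Lyz1 probe had at most 17 counts in any mouse and did not pass the filter.

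Cd68, a lysosomal glycoprotein of macrophages, also had higher means at 5 mg/kg in both sexes, on both of its probes. On the first probe the means were 2.23 ± 1.92 CPM in male controls (SD, n = 5) and 4.41 ± 3.0 at 5 mg/kg (SD, n = 4), and 4.09 ± 2.43 (n = 5) and 6.88 ± 2.96 (n = 4) in females. On the second probe they were 2.81 ± 3.26 and 5.86 ± 1.29 CPM in males and 2.79 ± 0.519 and 3.94 ± 1.63 in females. The log2 fold changes lay between 0.50 and 1.06 with SEs of 0.83 to 0.91, and the smallest adjusted p was 0.546. On the second probe the 4 treated males had 7.30, 4.41, 5.25 and 6.48 CPM while the controls had 0.72, 8.04, 3.88, 0 and 1.42, so 1 control lay above all of them.

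Cd5l, a scavenger protein that macrophages secrete, was the best counted member, with a mean of 775 counts per mouse. Male controls had 31.6, 122, 48.9, 57.4 and 51.4 CPM, and male mice at 5 mg/kg had 94.2, 44.0, 27.7 and 83.0. Their means were nearly equal, at 62.3 ± 34.8 (SD, n = 5) and 62.2 ± 31.5 CPM (SD, n = 4), with a log2 fold change of 0.0041 (SE 0.35) and a 95% interval from -0.71 to 0.71. Across the male groups the mean of Cd5l stayed between 58.0 and 63.5 CPM. In female mice the order ran from 84.0 ± 13.1 CPM at 0.1 mg/kg (SD, n = 5) over 96.1 ± 32.7 at 0 (n = 5) and 106 ± 23.2 at 0.5 (n = 4) to 131 ± 54.3 at 5 mg/kg (n = 4). Female controls had 67.8, 97.3, 95.7, 70.6 and 149 CPM and females at 5 mg/kg had 71.3, 202, 133 and 117. The groups overlapped, and the log2 fold change of 0.44 (SE 0.35, adjusted p = 0.809) was within the spread.

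Csf1r, the receptor through which CSF1 and IL-34 keep macrophages alive, likewise moved little at the highest dose. On its well-counted probe male controls had 19.4, 114, 75.1, 45.9 and 32.1 CPM, and males at 5 mg/kg had 116, 17.2, 49.1 and 51.9. The treated males covered the range of the controls, with a log2 fold change of 0.02 (SE 0.36). At 0.1 and 0.5 mg/kg the male means were 41.8 ± 14.1 and 39.6 ± 7.98 CPM (SD, n = 5 each) against 57.3 ± 37.9 in controls (SD, n = 5), with log2 fold changes of -0.45 and -0.53 and adjusted p of 0.975 and 0.675. In females the 4 means lay between 57.9 and 68.1 CPM, and the log2 fold change at 5 mg/kg was 0.03 (SE 0.35). The second Csf1r probe held 6.59 counts per mouse on average. In males it had counts in 2 of 5 controls (1 and 20 counts) and in none of the 4 males at 5 mg/kg. Against the control counts no fold is given for it, and its adjusted p was 0.189.

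Clec4f, the lectin found on mouse Kupffer cells, had similar means at all doses within each sex. Male controls had 9.36, 27.6, 8.95, 11.7 and 10.5 CPM, and males at 5 mg/kg had 23.3, 16.6, 0 and 16.1. Of the 4 treated males, 3 lay above 4 of the 5 controls and the fourth had no count. The log2 fold change was 0.06 (SE 0.45) with all 4 mice and 0.45 (adjusted p = 0.488) without the mouse at 0. In females the means were 19.8 ± 7.23 CPM at 0 (SD, n = 5), 22.3 ± 2.54 at 0.1 (n = 5), 22 ± 5.19 at 0.5 (n = 4) and 16.6 ± 6.69 at 5 mg/kg (n = 4). The female log2 fold change at 5 mg/kg was -0.25 (SE 0.45), with a 95% interval from -1.16 to 0.66.

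**Figure D1:**
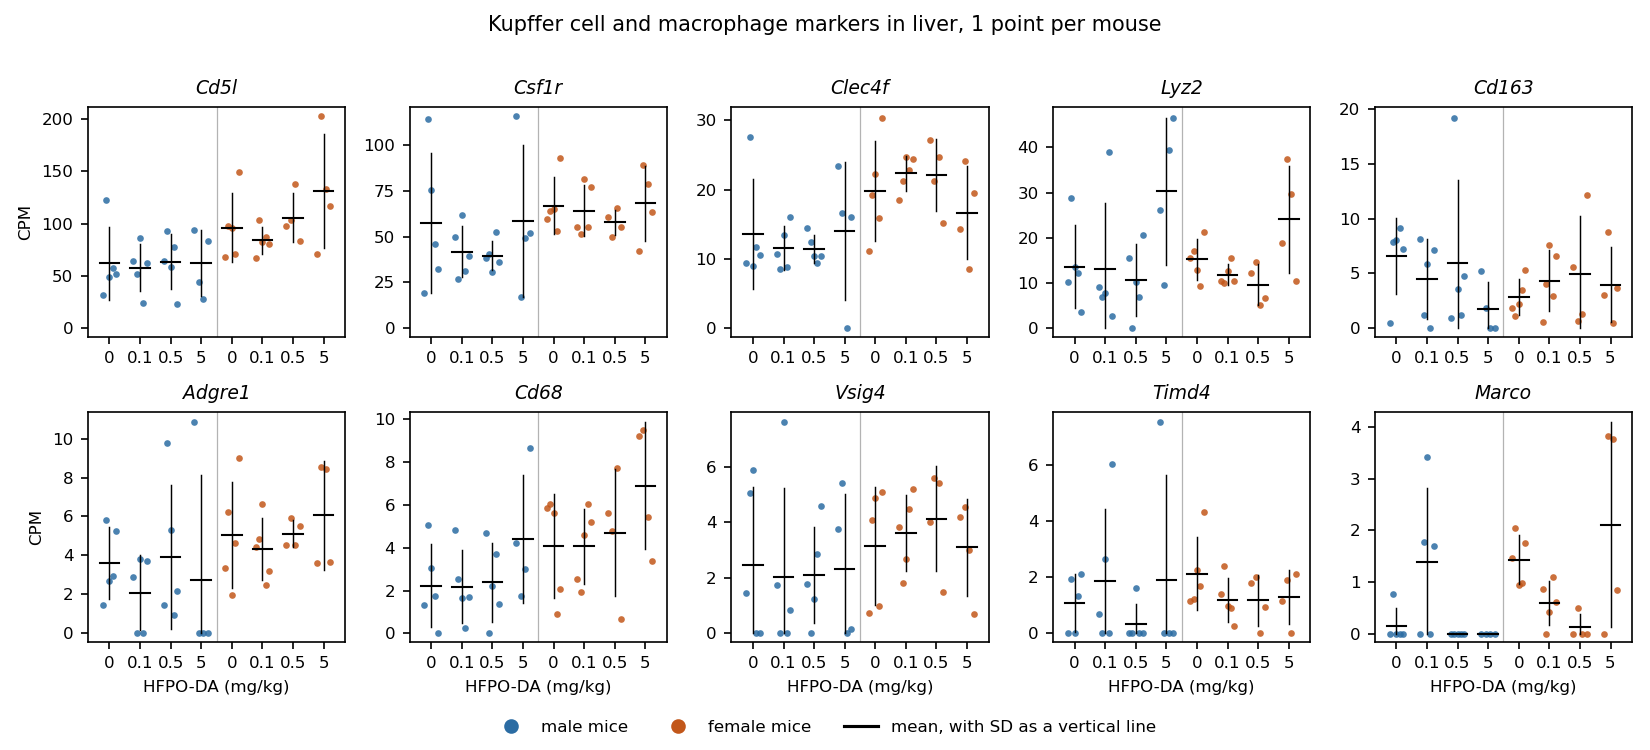
CPM of the 10 markers (vertical axes, linear; probe with the most counts) by dose in mg/kg, for male mice (blue) and female mice (orange); points are mice, horizontal bars are means and vertical lines run 1 SD to each side, stopping at 0. The Lyz2 means at 5 mg/kg are 30.4 CPM in males and 24.1 in females against 13.7 and 15.2 in controls, with overlapping points, and Marco has no count in any male at 0.5 or 5 mg/kg.

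The other 5 members had few counts, from a mean of 7.32 per mouse for Marco to 37.8 for Cd163. Adgre1, the adhesion receptor behind the F4/80 antibody, had 12, 45, 20, 22 and 37 counts in male controls and 46, 0, 0 and 0 in males at 5 mg/kg. So 3 of the 4 treated males had no count and the fourth had the highest level of Adgre1 of all 37 mice, 10.8 CPM. With all mice the log2 fold change was -0.43 (SE 1.02, adjusted p = 0.871). Without the fourth mouse Adgre1 was called lower at 5 mg/kg (adjusted p = 0.0015 in edgeR) and in the sex-by-dose interaction (adjusted p = 0.026), where 11% and 0.731% of all probes were called. The mouse left out was the only one of its group with a count, so what was left to compare was 3 mice at 0. In females Adgre1 was counted in every mouse, at 5.03 ± 2.72 CPM in controls (SD, n = 5) and 6.06 ± 2.81 at 5 mg/kg (SD, n = 4).

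Timd4, which binds phosphatidylserine on dying cells, followed Adgre1 in the same 4 males. It had 32, 0, 0 and 0 counts at 5 mg/kg, the counted mouse being the one with Adgre1, and 0, 15, 0, 10 and 15 in male controls. Its log2 fold change was 0.79 (SE 1.59) with that mouse, and the adjusted p was 0.136 without it, with the other 3 mice at 0 as were 2 of the 5 controls. Males at 0.5 mg/kg had Timd4 counts in 1 of 5 mice (13 counts). In females the control mean was 2.12 ± 1.31 CPM (SD, n = 5) and the means of the treated groups lay between 1.18 and 1.30, with log2 fold changes of -0.83, -0.85 and -0.70 and SEs of 1.49 to 1.60.

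Cd163, the receptor for haemoglobin bound to haptoglobin, had its lowest mean in males at 5 mg/kg. Male controls had 4, 61, 60, 69 and 51 counts and males at 5 mg/kg had 22, 17, 0 and 0. In CPM 4 of the 5 controls lay above all 4 treated males, and the groups overlapped through the control with 4 counts. The log2 fold change was -1.87 (SE 1.08, adjusted p = 0.30), with a 95% interval from -4.05 to 0.30. In females it was 0.49 (SE 0.99), and the interaction, -2.37 (SE 1.45), had an adjusted p of 0.610.

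Vsig4, a receptor for complement C3 fragments, had 12, 39, 44, 0 and 0 counts in male controls and 16, 49, 0 and 1 in males at 5 mg/kg. The 2 groups covered the same range, with a log2 fold change of -0.05 (SE 1.17). In females the 4 means lay between 3.10 and 4.13 CPM, and the log2 fold change at 5 mg/kg was -0.02 (SE 1.15).

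Marco, a scavenger receptor for bacteria and particles, was at the limit of detection in male mice. It had no count in any of the 5 males at 0.5 mg/kg or the 4 at 5 mg/kg, and in 1 of 5 male controls (6 counts). A count of 0 allows a level of up to 0.308 to 1.13 CPM in the males and 0.206 to 0.35 in the females, taking 3 counts as the floor of a library. Males at 0.1 mg/kg had 0, 12, 27, 0 and 16 counts. In females the controls had 14, 20, 10, 10 and 21 counts and females at 0.5 mg/kg had 0, 5, 0 and 0, so all controls lay above all treated mice. The change was not called (log2 fold change -3.39, SE 1.89, adjusted p = 1), and at 5 mg/kg the counts were 0, 42, 43 and 10, with no such order over the doses.

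Marco in females at 0.5 mg/kg was the only member whose mice did not overlap with those of their controls in the 6 comparisons with a control group. Over all probes tested 0.7%, 1.35% and 7.58% did not overlap in males at the low, middle and high dose, and 1.25%, 3.01% and 8.71% in females. Between male and female controls Marco was again the only member without overlap, at 0.156 ± 0.348 CPM in males (SD, n = 5) and 1.44 ± 0.481 in females (SD, n = 5), against 4% of all probes. Of the 12 probes 10 had a lower fitted level in male than in female controls, and their median log2 difference was -0.51 where that of all probes was -0.06. Among the well-counted members Cd5l differed most, at -0.63 (SE 0.33, adjusted p = 0.523). Cd163 went the other way, at 1.21 (SE 0.95, adjusted p = 0.841).

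Over the 12 probes the median log2 fold changes at the low, middle and high dose were -0.09, -0.23 and 0.01 in male mice and -0.13, 0.08 and 0.36 in female mice. The medians of all probes tested were -0.03, -0.06 and -0.12 in males and 0.01, -0.02 and -0.01 in females. Summed over the members, the level was 75.2 to 319 CPM in male controls and 96.3 to 291 at 5 mg/kg, and 162 to 321 CPM in female controls and 168 to 390 at 5 mg/kg. The widths of the intervals followed the counts. The biological coefficient of variation, the spread between mice of a group beyond counting error, was 0.37 for Cd5l and for the first Csf1r probe, 0.43 for Clec4f and 0.60 for Lyz2, below the median of 0.66 over all probes. It was 0.76 to 1.09 for Cd68, Adgre1, Cd163 and Vsig4, 1.58 for Marco and Timd4 and 1.91 for the second Csf1r probe.

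**Figure D2:**
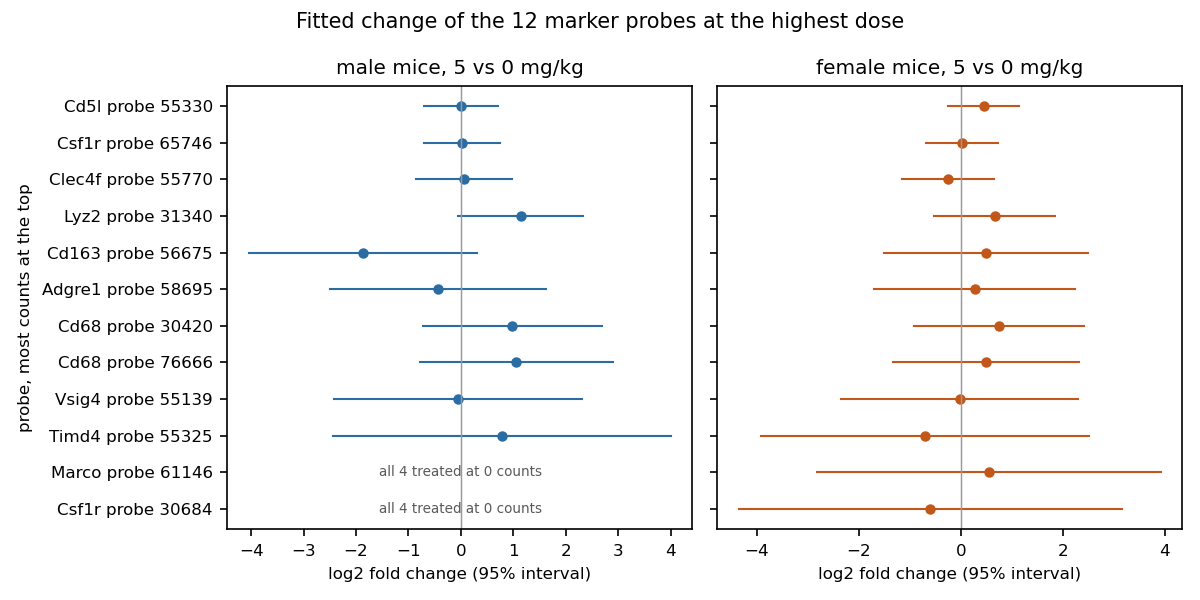
Fitted log2 fold change (horizontal axis) of the 12 probes at 5 against 0 mg/kg in male (left) and female mice (right); points are edgeR's estimates, lines their 95% intervals, and probes with no count in the treated group carry words instead. All drawn intervals include 0, from the narrow ones of Cd5l and the first Csf1r probe to those of Timd4, Marco and the second Csf1r probe, which are wider than 6 log2 units.

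Counts of 0 were frequent and unevenly spread over the mice. Taking the best counted probe of each gene, 51 of the 370 pairs of a member and a mouse were at 0, namely 44 of 190 in males and 7 of 180 in females. Of the males, the library of 2101495 counts (5 mg/kg) lacked 6 of the 10 members, that of 2608954 (0.5 mg/kg) lacked 5 and that of 4012015 (0.1 mg/kg) lacked 5, while a male at 5 mg/kg with 4147445 counts lacked only Marco. After every library had been thinned to 2101495 counts, 47 pairs were at 0 in males and 13 in females. Few low counts lay between: 3 of the 370 pairs had 1 to 3 counts. In the whole table of 1115402 values 499488 were 0, 14367 were 1 and 8290 were 2, and the number then rose to 10693 at 6 counts. In 22 of the 51 pairs at 0 the other mice of the group would lead to at least 10 counts at that depth, and for Clec4f in the male at 5 mg/kg without a count to 49.8. The floors of 3 counts cover counting error only, and reads are not independent molecules.

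**Figure D3:**
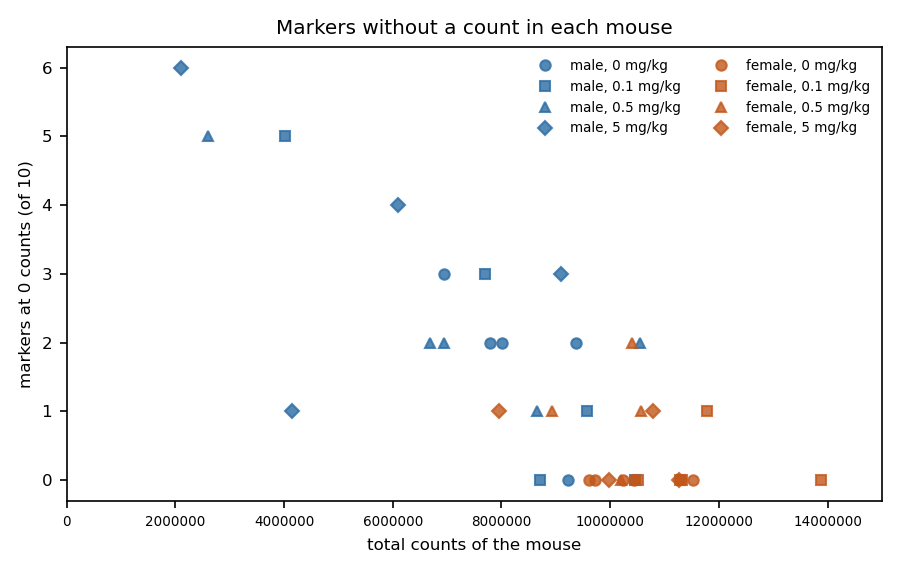
Number of the 10 markers with no count (vertical axis) against the total counts of each of the 37 mice (horizontal axis); blue is male, orange is female and the symbol gives the dose. Females lie at 0 to 2 markers, and the males with 5 or 6 markers at 0 have between 2101495 and 4012015 counts.

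Between mice of a group the levels of most pairs of members were positively correlated. On log2 CPM with the mean of each dose group removed, the Pearson correlation of the 45 pairs of members was above 0 for 37 pairs in males (median 0.32, n = 19) and for 35 pairs in females (median 0.25, n = 18). The same share was not computed for pairs of other genes. Whether it is particular to the members is therefore not known. Over the 90 pairs of both sexes 3 passed an adjusted p of 0.10 by permutation within dose groups, all in males. Adgre1 and Timd4 had r = 0.84 and rho = 0.84 (permutation p = 0.0010 and 0.0012, adjusted 0.047 and 0.033). Adgre1 and Cd163 had r = 0.80 and rho = 0.77 (permutation p = 0.00027 and 0.00049, adjusted 0.024 and 0.033). Clec4f and Cd5l had r = 0.55 and rho = 0.65 (permutation p = 0.0018 and 0.0015, adjusted 0.054 and 0.033). Without the 2 mice farthest from the median of the first gene r was 0.75, 0.81 and 0.45. By rank 2 further pairs of Cd5l passed in males, with Csf1r (rho = 0.71, permutation p = 0.0015, adjusted 0.033) and with Adgre1 (rho = 0.62, permutation p = 0.0052, adjusted 0.078). In females 0 of 45 pairs passed by Pearson's r (2 at an unadjusted p under 0.05) and 1 by rank, Marco with Lyz2 (rho = 0.70, permutation p = 0.0049, adjusted 0.078).

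The same pairs had r = 0.60 for Clec4f and Cd5l, 0.05 for Adgre1 and Timd4 and 0.06 for Adgre1 and Cd163 in females, and the difference between the sexes was not tested. Mice with no count set part of these values in males: Adgre1 was at 0 in 5 of the 19 males, in every one of which Timd4 was at 0 too. The total counts of those 5 mice ran from 2101495 to 9098192, and the part of depth in the correlation was not tested. Lyz2 differed from the other members in males, with r of -0.54 to Cd163 and 0.57 to Cd68, neither past the adjusted threshold. For the 2 probes of Cd68 r was 0.18 in males and 0.43 in females, where the rank correlation passed the threshold over the 4 same-gene pairs (rho = 0.55, permutation p = 0.022, adjusted 0.089). For the 2 probes of Csf1r r was 0.23 in males and 0.31 in females.

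**Figure D4:**
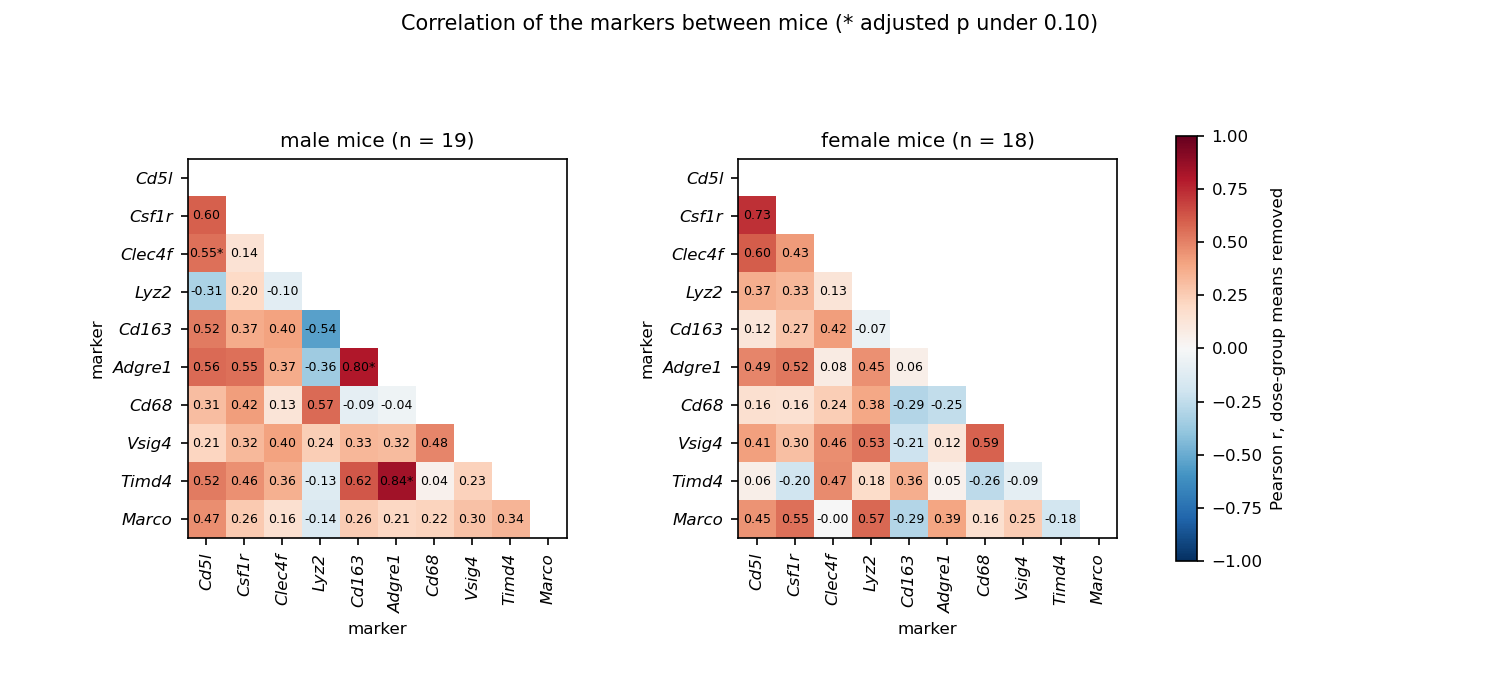
Pearson r between pairs of markers in male (left, n = 19) and female mice (right, n = 18), on log2 CPM with dose-group means removed; both axes list the markers from most to fewest counts, and an asterisk marks an adjusted permutation p under 0.10. The 3 marked pairs are in males, and Lyz2 stands out there by its negative values.

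Over all 37 mice the genes with the highest r to Clec4f among 12995 were Cd53 (0.92), Acvr2a (0.91), Mier1 (0.90), Map3k1 (0.89) and Pfdn1 (0.89). These values rested on the male at 5 mg/kg with no Clec4f count. Without it r fell to 0.61 for Cd53, a tetraspanin of leukocytes, and to 0.25 to 0.39 for the other 4. Cd5l was the member closest to Clec4f, at rank 876 (r = 0.55) with that mouse and rank 16 (r = 0.60) without it, when Itih3 (0.71), Sdc3 (0.68), Stat3 (0.68), Nnmt (0.66) and Taf3 (0.66) came first. Timd4 and Csf1r then stood at ranks 48 and 108, and Lyz2 was the farthest, at rank 6528 (r = 0.02).

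Other genes from the lists of macrophage genes did pass the test at 5 mg/kg. From a list of 11 further Kupffer cell identity genes, 3 were called lower in male mice and 2 in female mice, where 12.7% and 4.52% of all probes were called. Of the 11 fitted changes 4 were above 0 in males and 3 in females, and the list had a median of -0.63 log2 units in males and of -0.42 in females. Slc1a2, a glutamate transporter, had 143, 231, 160, 90.4 and 127 CPM in male controls and 18.1, 18.3, 13.5 and 31.95 at 5 mg/kg, a change of -2.86 on the log2 scale (SE 0.39, adjusted p = 9.1e-07). In females it went from 222 ± 50.6 CPM (SD, n = 5) to 69.9 ± 57.8 (SD, n = 4), with a log2 fold change of -1.66 (adjusted p = 0.0025). C6, a complement component, went in males from 339 ± 117 to 169 ± 64.4 CPM (log2 fold change -1.01, SE 0.23, adjusted p = 0.0024). Both are also made by hepatocytes, and in bulk liver their changes cannot be assigned to either cell type. The female controls had 41.8 ± 6.43 CPM of C6 (SD, n = 5), 3.02 log2 units below the male controls (adjusted p = 1.9e-13).

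Fcna, a ficolin made by macrophages and no hepatocyte gene, had 13.1, 33.3, 24.9, 32.3 and 20.7 CPM in male controls and 17.7, 8.49, 0 and 8.34 at 5 mg/kg. Of the 4 treated males, 3 lay below every control. The log2 fold change was -1.49 (SE 0.51, adjusted p = 0.060), and without the treated mouse at 0, whose library was the smallest, it was -1.13 (adjusted p = 0.145). Without control replicate 2 the adjusted p was 0.103. Slc40a1, the iron exporter, went in females from 127 ± 31.5 CPM (SD, n = 5) to 83.7 ± 12.8 at 5 mg/kg (SD, n = 4), a log2 fold change of -0.61 (adjusted p = 0.086). That call was lost, with adjusted p of 0.113 to 0.275, when any of 3 control females (replicates 2, 4 and 5) or of 3 treated females (replicates 1, 2 and 4) was left out. Its control level was lower in males, at 80.5 ± 13.7 CPM (SD, n = 5, adjusted p = 0.048). The difference missed the threshold when 1 of 3 males (replicates 1, 3 and 5) or 1 of 2 females (replicates 2 and 4) was omitted, with adjusted p of 0.137 to 0.229.

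The 18 phagocyte receptors and C1q chains gave no edgeR call in any comparison, with 0 genes at an unadjusted p under 0.05 at 5 mg/kg in males and 1 in females, and DESeq2 called 1 of them, lower in males at 0.5 mg/kg. The list had a median log2 fold change at 5 mg/kg of 0.06 in males (12 of 18 above 0) and 0.43 in females (14 of 18 above 0).

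Genes of monocyte-derived and lipid-associated macrophages (10 of 12 tested) included 2 called higher in males at 5 mg/kg, where 12.7% of all probes were called. Gpnmb, a glycoprotein of lipid-laden macrophages, had no count in 5 male controls and 0, 50, 66 and 21 counts in the 4 males at 5 mg/kg. Allowing for counting error only, the mean of 8.37 CPM was at least 106-fold higher than a floor of 3 counts over the controls (adjusted p = 0.018). The treated males had 0, 5.51, 24.7 and 3.24 CPM, with the highest value in the smallest library. Mmp12, macrophage elastase, had 2, 0, 0, 0 and 0 counts in male controls and 0, 34, 38 and 9 at 5 mg/kg on its best counted probe (adjusted p = 0.024). The treated male without Gpnmb and Mmp12 was the one with the highest Adgre1 and Timd4, and the male with the highest CPM of Gpnmb and Mmp12 was the one without Clec4f and Fcna. With the counts of all 4 Mmp12 probes summed the adjusted p was 0.127, and without the smallest treated library it was 0.114.

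In females the same list had all 10 fitted changes above 0 at 5 mg/kg and none called by edgeR (0 at an unadjusted p under 0.05). DESeq2 called none either, but it gave an adjusted p to only 3 genes of the list and could not call the others. The list median was 1.0 on the log2 scale where that of all probes was -0.01. Mmp12 had 0, 9, 0, 0 and 33 counts in female controls and 46, 62, 73 and 13 at 5 mg/kg, so 3 of 4 treated females lay above every control. The male median was 0.53, with 7 of 10 above 0. Across the lower doses the list medians were -0.05 and -0.54 in males and 0.03 and 0.05 in females.

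**Figure D5:**
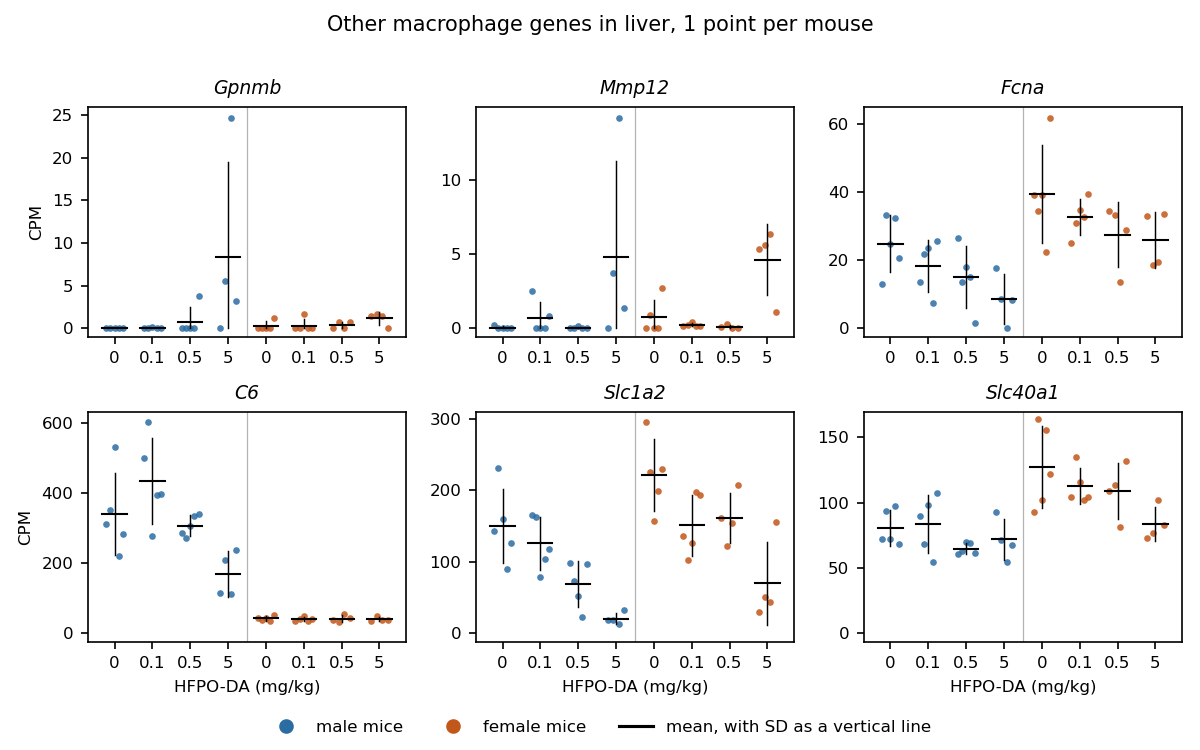
CPM (vertical axes, linear; probe with the most counts) of 6 other genes from the macrophage lists by dose in mg/kg in male mice (blue) and female mice (orange); points are mice, horizontal bars means and vertical lines 1 SD to each side, stopping at 0. Of these genes, Slc1a2 and C6 are also made by hepatocytes. Gpnmb and Mmp12 are near 0 in control males and reach 24.7 and 14.2 CPM in 1 male at 5 mg/kg, and Slc1a2 is below every control in all 4 males at that dose.

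Of the markers of other liver cells, a few were called at 5 mg/kg, where 12.7% of all probes were called in males and 4.52% in females. In males, 3 of 7 tested hepatocyte markers were lower (Ahsg, Fgb and Cps1), as were 2 of 12 sinusoidal endothelial markers (Oit3 and Kdr) and 1 of 8 T and NK cell markers, Cd3d. The call of Kdr was lost without control replicate 4 or treated replicate 1 or 3, with adjusted p of 0.132 to 0.223. Cd3d had 36, 64, 32, 10 and 45 counts in male controls and 0 in all 4 males at 5 mg/kg (adjusted p = 0.00029). Allowing for counting error only, this was at least 36.9-fold lower than the control mean. Cd3d was also at 0 in replicate 4 of the males at 0.1 mg/kg and in replicate 2 of those at 0.5 mg/kg. The interaction of Cd3d with sex was called too (adjusted p = 0.027). All 8 tested T and NK cell genes were fitted lower in males at 5 mg/kg. Of these, 4 had an unadjusted p under 0.05 in edgeR, and the list median was -5.05 log2 units. All 5 tested neutrophil genes were fitted lower there too, 2 at an unadjusted p under 0.05 in edgeR, with a median of -4.03 and none called. In females the medians of the 2 lists were -0.60 and -0.72. Most genes of both lists had few counts. In females at 5 mg/kg 3 hepatocyte markers were lower (Ttr, Ahsg and Fgb), and at 0.5 mg/kg Ahsg was lower in males. Between the controls of the sexes Alb was lower in males, and so was Ly6g of neutrophils, whose call was lost without any of 3 males (replicates 1, 3 and 4) or 1 female (replicate 2), with adjusted p of 0.117 to 0.149. Of the 5 tested neutrophil genes the other 4 were fitted higher in male controls, and the list median was 0.97 log2 units. Summed over the 10 genes of the list, however, the male controls had a median of 8.55 CPM and a highest value of 99.3. The female controls ran from 23.6 to 42.0 CPM. How far the 4 fitted values rest on the highest male was not tested. At 5 mg/kg edgeR called no gene of the B and plasma cell, dendritic cell or cholangiocyte lists (0 at an unadjusted p under 0.05 in either sex), and neither did DESeq2. However, DESeq2 gave an adjusted p to only 6, 3 and 4 genes of these lists in males and to 0, 1 and 2 in females. It could not call the others. Of the 11 stellate cell genes edgeR called 0 and counted 3 at an unadjusted p under 0.05 in males, where DESeq2 called 2. Of 7 macrophage activation genes edgeR called 0 and counted 1 at an unadjusted p under 0.05 in females. DESeq2 called 1 there, the only gene of the list to which it gave an adjusted p. The median log2 fold change of the 7 genes was 1.53 in females and -0.64 in males. Summed over the list, the females at 5 mg/kg ranged from 14.5 to 135 CPM and the female controls from 15.9 to 27.1. The part of these cells in the values of the macrophage genes was not tested.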

How the data were processed

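Livers of 37 mice were assayed by TempO-Seq. Per the labels and the study's methods, the authors scraped fixed liver sections from slides, ligated and sequenced the probes, demultiplexed with bcl2fastq 2.17.1.14, aligned with Bowtie, counted reads per probe and left out mice with too few reads or probes. The deposited values are raw counts per probe, with the gene symbol at the start of the probe name. The genome build is not given in the sources used here. No count was altered, and no library was a copy of another of its group: the lowest chi-square per degree of freedom among 68 pairs of replicates was 20.0. Libraries of different groups were not compared in this way.

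Counts were tested with edgeR 4.0.16 (R 4.3.3): filterByExpr, TMM scaling, 1 quasi-likelihood fit of 8 group means over all 37 mice, and Benjamini-Hochberg adjustment over all 18570 probes, with calls at an adjusted p under 0.10. The test was checked on simulated data. Correlations used log2 CPM with a prior count of 2, centred on the dose group, and 100000 two-sided permutations within dose groups (Python 3.11.15).

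Named genes were all member probes, the called genes of the other lists (at most 4 per list and comparison, by adjusted p on the probe with the most counts), the 5 genes most like Clec4f, the hepatocyte markers and Lyz1. The result of 1 gene is not reported here. The members and the lists were chosen with earlier results of these data known. Alternatives were size factors of DESeq2 1.42.0, DESeq2 in place of edgeR, other filters, a robust fit, each sex apart, summed probes, thinned counts, a stricter threshold of 0.05, and the omission of 1 mouse at a time.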

Additional observations from a re-analysis of the deposited data

Results flagged for a closer look

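Of 78 groups of 4 or 5 mice examined for the 10 markers (those with any count), 11 held a mouse far from the others. Chance flags about 1 in 20 groups of normally distributed values without ties. Whether the CPM, which were not transformed, were so distributed was not tested. The rate of 1 in 20 does not apply to 5 of the 11, in which 1 mouse had counts and the others none. In male controls the same mouse stood apart for Clec4f (27.6 CPM, next 11.7), Cd5l (122 CPM, next 57.4) and Marco (0.778 CPM, the others 0), and it had the highest sum over the markers of all male mice, 319 CPM. In males at 5 mg/kg 1 mouse stood apart for Adgre1 (10.8 CPM) and Timd4 (7.54 CPM), with the other 3 at 0. The mouse of male controls with the lowest Cd163 had 0.480 CPM, and the next had 7.24. Single high mice were also found for Vsig4 at 0.1 mg/kg in males (7.60 CPM, next 1.73), Lyz2 at 0.1 mg/kg in males (39.0 CPM, next 9.22), Cd163 at 0.5 mg/kg in males (19.2 CPM, next 4.76), Timd4 at 0.5 mg/kg in males (1.60 CPM, the others 0) and Marco at 0.5 mg/kg in females (0.500 CPM, the others 0). Of the 11 values, 10 were in males. The causes were not tested.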

How the results depend on the processing

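The count of members called stayed at 0 in 218 of 220 recalculations. It was 0 to 1 when leaving out each mouse for males at 5 mg/kg and for the interaction at that dose, where the male with Adgre1 counts decides, and 0 for the other 8 comparisons. The number of correlated pairs was 3 under both alternatives. Of 338 recalculated log2 fold changes at 5 mg/kg, 299 kept their direction and stayed short of the threshold, 1 passed it (Adgre1, above) and 38 changed sign, most of them around values near 0. In males Vsig4 (main value -0.05) became 0.0157 with DESeq2's size factors, 0.0071 in DESeq2 and 0.30 without the 2 males with the fewest counts, an alternative chosen after seeing the data, and Cd5l (0.0041) became -0.0012 without the filter, -0.0123 with each sex fitted apart and -0.11 with thinned counts. In females Vsig4 (-0.02) became 0.47 with thinned counts. Leaving out each mouse gave, in males, -0.31 to 0.45 for Clec4f, -0.92 to 0.52 for Vsig4, -6.31 to 1.20 for Timd4, -0.30 to 0.37 for Cd5l and -0.58 to 0.41 for Csf1r, and, in females, -0.28 to 0.31 for Vsig4, -0.14 to 0.20 for Csf1r and -0.25 to 0.86 for Cd163. Without the 2 males with the fewest counts no member was called. No paired analysis was possible because the labels give the groups no shared replicate numbers. Counts per marker limit what could be seen: the intervals of Cd5l, Clec4f and the better counted Csf1r probe at 5 mg/kg reach out to 1.16 log2 units at most, and those of the other probes farther. Seen on their own, Slc40a1 in females was called in 12 of 19 settings, Kdr in 14, Fcna in 15 and Mmp12 in 14 of 18. Slc1a2, C6, Gpnmb and Cd3d in males passed in every setting that tested them. Gpnmb was not tested under the filter on a mean of at least 10 counts or with thinned counts.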
